A study of Homo sapiens with 8 samples.

Results

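The methionine cycle and the methionine salvage route were followed through 9 genes in the renal cell carcinoma (RCC) line 786-O: MAT2A, MAT2B, AHCY, MTR, MTRR, MTAP, MRI1, APIP and ADI1. Each gene was represented by the transcript cluster, the set of probes read together on the array, that the array annotation ties to its symbol alone. All 9 genes had exactly 1 such cluster, and they are 9 of 18417 genes with a cluster of this kind. AHCY and ADI1 are among them because their products stand in the study's list of proteins that differed on 2-dimensional gels of these cells. Both were listed as higher in the cells transfected with VHL, AHCY (as SAHH) under normoxia only and ADI1 under hypoxia only. The gels measured protein after a longer incubation than that of the arrays. The choice of these 2 genes is no independent evidence of a direction here. Total RNA came from 4 groups of 786-O cells with 2 biological replicates each, as the labels call them: VHL transfectants (VHL+) under hypoxia, VHL+ cells under normoxia, untransfected cells (VHL-) under hypoxia and VHL- cells under normoxia, each kept for 24 h, giving 8 Affymetrix gene arrays. 786-O, an established line, lacks functional VHL, the part of a ubiquitin ligase that captures the HIFα proteins for degradation when oxygen is present, and both kinds of cells derive from it. The transfectants were stable according to the methods, and bulk cultures is the study's term for those measured by qPCR, whereas the VHL- arrays are labelled as having no transfection, so that VHL and the passage through transfection and selection cannot be told apart.

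Methionine is activated to S-adenosylmethionine (SAM), the methyl donor of most methyltransferases, by methionine adenosyltransferase, whose catalytic subunit outside the liver is encoded by MAT2A and whose regulatory subunit is encoded by MAT2B. Each methyl transfer leaves S-adenosylhomocysteine (SAH), an inhibitor of methyltransferases, which AHCY splits into adenosine and homocysteine. MTR, the cobalamin-dependent methionine synthase, turns homocysteine back into methionine with a methyl group from folate, and MTRR restores the oxidized cobalamin of MTR. Polyamine synthesis consumes SAM and leaves methylthioadenosine, which MTAP cleaves as the entry to salvage. MRI1 (an isomerase), APIP (a dehydratase), ENOPH1 (an enolase phosphatase) and ADI1 (a dioxygenase that uses molecular oxygen) then carry the methylthio group through to the keto acid from which methionine is made again.

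The promoters of AHCY and ADI1 are shown because these had the largest changes of the 9 genes. HIF, whose binding core is written ACGTG or GCGTG, is 1 route by which VHL acts on transcription. The study also reports changes that it regards as independent of HIF, and which route applies to these genes was not tested. The windows hold the 250 bases before a RefSeq start on GRCh38.p14, are printed 5′ to 3′ on the strand of the gene, and carry every core on either strand in capitals. AHCY has 3 such windows, of which the one with the most cores, chr20:34303356-34303605 on the minus strand, is printed. ADI1 has 1 window, chr2:3519532-3519781 on the minus strand.
AHCY: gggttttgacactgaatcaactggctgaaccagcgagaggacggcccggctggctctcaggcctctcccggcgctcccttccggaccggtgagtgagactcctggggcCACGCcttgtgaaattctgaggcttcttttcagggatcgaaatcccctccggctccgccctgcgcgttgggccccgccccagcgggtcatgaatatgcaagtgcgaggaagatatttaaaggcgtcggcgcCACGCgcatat
ADI1: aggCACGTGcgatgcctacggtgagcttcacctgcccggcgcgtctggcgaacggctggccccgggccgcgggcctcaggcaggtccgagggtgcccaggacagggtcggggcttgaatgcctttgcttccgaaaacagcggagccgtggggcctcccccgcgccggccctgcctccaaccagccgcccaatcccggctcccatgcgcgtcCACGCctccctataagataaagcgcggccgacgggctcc
The printed AHCY window has cores that begin 142 and 11 bases before the start. That of ADI1 has cores at 247, 246 and 39 bases before the start, the overlapping pair lying in 1 CACGTG, the E-box read by MYC and related factors, which holds ACGTG on both strands. At least 1 core was found in 9 of 12 windows of the 8 genes with a window here, against 43.2% of all 35116 human windows of this length. Counted by gene, 6 of the 8 had a core, but the share over all human genes was not counted. AHCY, MAT2B and MTR have more than 1 window each, and those of MTR overlap and hold the same core, so the windows are not independent. The E-box was found in 2 of the 12 windows, those of ADI1 and MRI1, against 6.34% of all windows. These matches are letters in a window and not sites shown to be bound.

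The array values are log2 signals after Robust Multichip Average (RMA) normalization, and a difference of 1 stands for a 2-fold change. VHL itself was higher in the transfectants, with a log2 fold change of 0.75 (adjusted p = 0.00211, SE 0.14) under hypoxia and of 0.52 (adjusted p = 0.0398, SE 0.14) under normoxia. NDRG1, a gene induced through HIF, had 11.28 and 11.12 under hypoxia against 8.91 and 8.93 under normoxia in VHL+ cells, and 11.33 and 11.59 under hypoxia against 10.48 and 10.30 under normoxia in VHL- cells. Its log2 fold change under hypoxia was 2.28 in VHL+ cells (adjusted p = 1.48e-07, but 0.0505 without VHL+ hypoxia replicate 1) and 1.07 in VHL- cells (adjusted p = 0.00489). The call in VHL- cells was lost after quantile normalization (adjusted p = 0.228), after median centring (0.0634) and without either VHL+ hypoxia array (up to 0.538). SLC2A1, the glucose transporter GLUT1, was lower in VHL+ than in VHL- cells under normoxia, with a log2 fold change of -1.08 (adjusted p = 0.000296, SE 0.16), and so was EPAS1, which encodes HIF2α, at -0.77 (adjusted p = 0.0146). The EPAS1 call was lost after quantile normalization (adjusted p = 0.0520), after median centring (0.0711) and without either VHL+ hypoxia array (up to 0.111). The 6 markers of renal carcinoma epithelium were above the median of all clusters on both arrays of every group, and the 8 markers of leukocytes, endothelium and hepatocytes were below it on both arrays of every group. The median of all clusters differed between arrays, with the highest value, 6.91, on VHL+ hypoxia replicate 1 and the lowest, 6.60, on VHL- hypoxia replicate 1. The median log2 fold change of all clusters was 0.16 for VHL under hypoxia, -0.04 for VHL under normoxia, 0.06 for VHL over all arrays, 0.09 for hypoxia in VHL+ cells and -0.12 for hypoxia in VHL- cells. Dim clusters are those whose mean signal lay below that of the median cluster, and none of the 9 genes was among them. Without dim clusters, the medians were 0.23, -0.01, 0.10, 0.145 and -0.10 in the same order.

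All 9 genes had signals above the median of their array on 8 of 8 arrays. Among them MAT2A had the highest signals, at percentiles of 96.4 to 98.1 of the clusters of the same array. MTRR stood at percentiles of 92.8 to 94.4, while MTAP, APIP and MRI1 were the lowest, with percentiles between 61.5 and 71.1. These percentiles describe signals of different probe sets, so they do not rank the transcripts by amount.

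**Figure D1:**
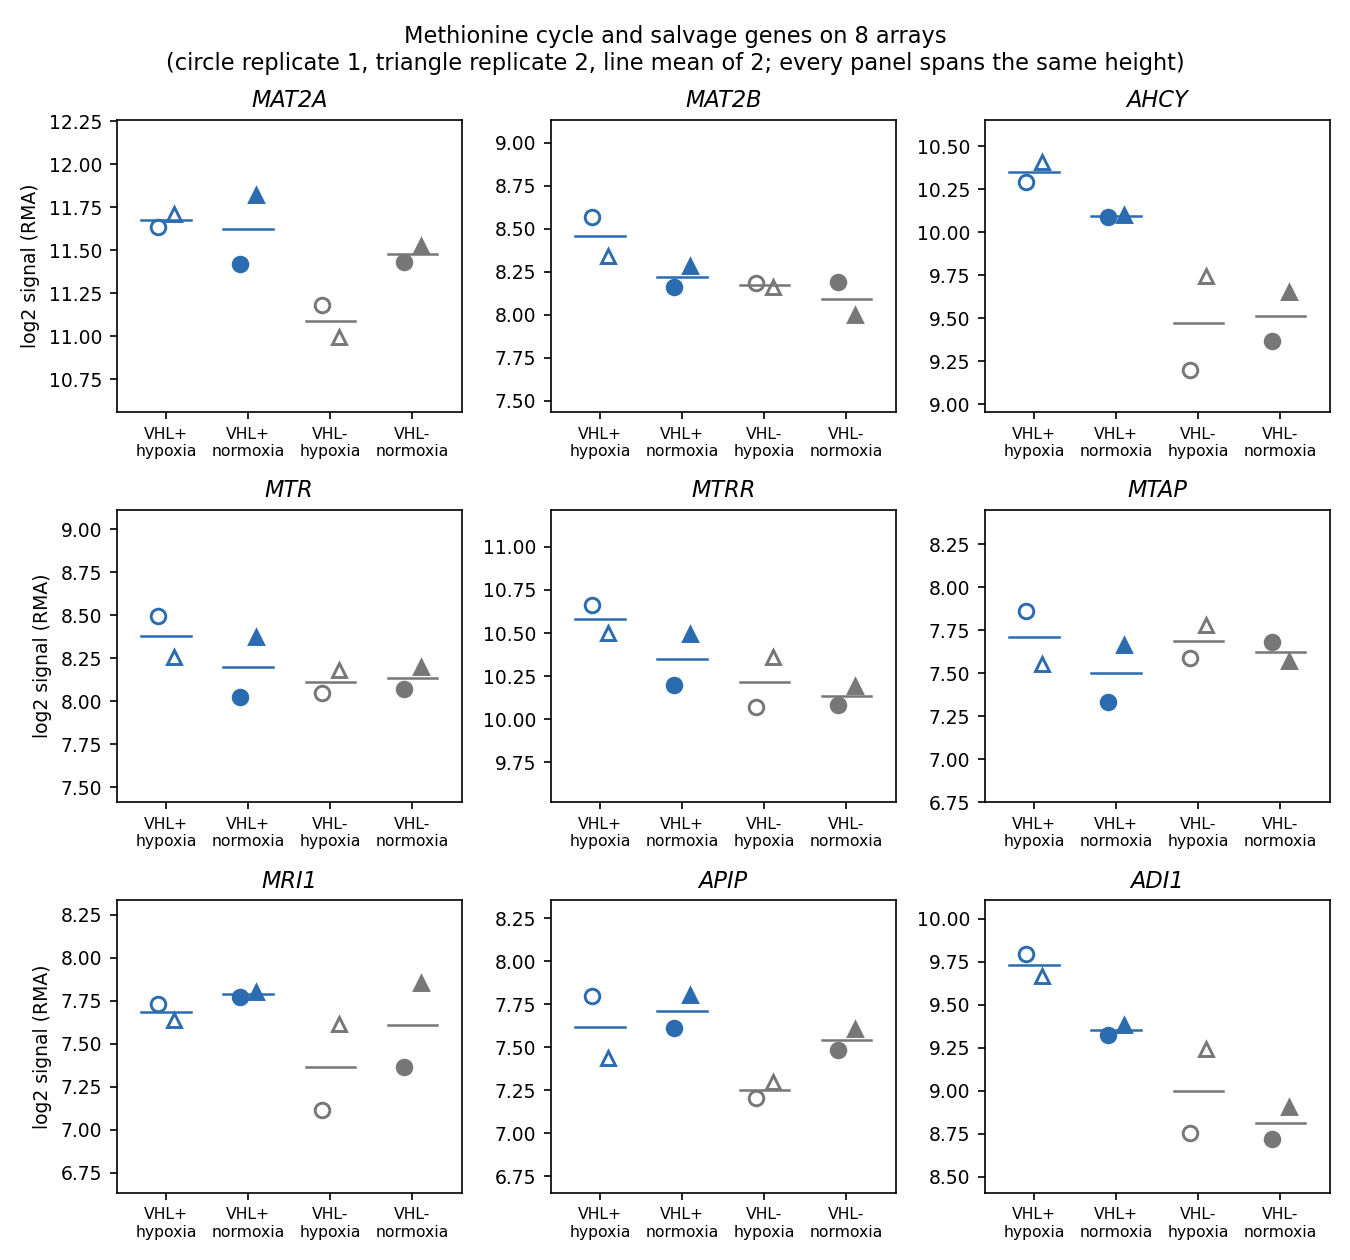
Log2 RMA signal of the 9 genes on each of the 8 arrays (y axis, log2; every panel spans the same height) by group (x axis), with replicate 1 as a circle, replicate 2 as a triangle and the mean of both as a line. For AHCY and ADI1 all 4 VHL+ arrays lie above all 4 VHL- arrays, while MAT2A is lowest on both arrays of VHL- cells under hypoxia.

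In a fit over both oxygen conditions together, VHL+ cells had higher signals of AHCY, ADI1 and MAT2A than VHL- cells. None of the other 6 passed the test in either direction. AHCY was 1.66-fold and ADI1 1.55-fold higher, MAT2A 1.29-fold. Unlike the other 2, MAT2A lost its call under quantile normalization and median centring. Under normoxia alone it had a log2 fold change of 0.14 (limma, adjusted p = 0.967). The 3 enzymes act at separate points: SAM synthesis (MAT2A), SAH removal (AHCY) and the oxygen-consuming step of salvage (ADI1). This fit adjusts for oxygen and uses all 8 arrays, and 14.3% of all 33297 clusters passed it, 10.6% as higher and 3.72% as lower. Higher calls made up 74% of these, but 52.5% after quantile normalization and 61.7% after median centring. The signals are averages over a culture, so that fewer expressing cells and less RNA per cell cannot be told apart.

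AHCY had log2 signals of 10.30 and 10.41 in VHL+ cells under hypoxia and 10.09 and 10.10 in VHL+ cells under normoxia, against 9.20 and 9.75 in VHL- cells under hypoxia and 9.37 and 9.65 in VHL- cells under normoxia. Every VHL+ array was above every VHL- array, and the replicates of VHL+ cells under normoxia were nearly equal. Its log2 fold change was 0.73 (95% interval 0.48 to 0.98, SE 0.12, adjusted p = 8.02e-05). Ranked within each array, AHCY stood at percentiles of 91.9 to 93.4 on the VHL+ arrays and of 88.1 to 90.6 on the VHL- arrays, again without overlap.

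ADI1 had log2 signals of 9.79 and 9.67 in VHL+ cells under hypoxia and 9.32 and 9.38 in VHL+ cells under normoxia, against 8.75 and 9.24 in VHL- cells under hypoxia and 8.72 and 8.91 in VHL- cells under normoxia. The groups did not overlap here either, although VHL- hypoxia replicate 2 came close to the VHL+ arrays under normoxia. The log2 fold change was 0.64 (95% interval 0.40 to 0.87, SE 0.11, adjusted p = 0.000222). In ranks within the array, ADI1 stood at percentiles of 86.8 to 89.7 in VHL+ cells and of 82.2 to 87.0 in VHL- cells, so that the ranks overlapped. A complete separation with VHL+ higher, as in AHCY and ADI1, was found for 10.1% of all clusters. Both genes passed under quantile normalization (adjusted p = 0.00501 for AHCY and 0.00547 for ADI1), under median centring and without any single array.

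MAT2A had log2 signals of 11.64 and 11.71 in VHL+ cells under hypoxia and 11.42 and 11.82 in VHL+ cells under normoxia, against 11.18 and 11.00 in VHL- cells under hypoxia and 11.43 and 11.53 in VHL- cells under normoxia. The groups overlapped, since VHL+ normoxia replicate 1 lay just below both VHL- arrays under normoxia. Its log2 fold change was 0.36 (95% interval 0.12 to 0.60, SE 0.12, adjusted p = 0.0355). This call was lost under quantile normalization (adjusted p = 0.0963) and median centring (adjusted p = 0.106). It was also lost without VHL+ hypoxia replicate 1 (adjusted p = 0.218) or 2 (0.140), without VHL+ normoxia replicate 2 (0.131), and without VHL- hypoxia replicate 1 (0.0603) or 2 (0.218).

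The other 6 genes did not pass the test of VHL over all arrays. MTRR had a log2 fold change of 0.29 (adjusted p = 0.0841, SE 0.11), with signals of 10.66 and 10.50 in VHL+ cells under hypoxia and 10.20 and 10.50 in VHL+ cells under normoxia, against 10.07 and 10.36 in VHL- cells under hypoxia and 10.08 and 10.19 in VHL- cells under normoxia. APIP had a log2 fold change of 0.27 (adjusted p = 0.121, SE 0.11), with 7.80 and 7.44 in VHL+ cells under hypoxia and 7.61 and 7.80 in VHL+ cells under normoxia, against 7.21 and 7.30 in VHL- cells under hypoxia and 7.48 and 7.61 in VHL- cells under normoxia. Both APIP (adjusted p = 0.0427) and MTRR (0.0193) passed once VHL+ normoxia replicate 1 was left out. In that fit 6125 of all clusters were called, against 4770 with all arrays. The median of all clusters was 0.10 there, against 0.06. The 4 arrays of VHL- cells and those of VHL+ cells overlapped for both genes.

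MRI1, MAT2B and MTR had log2 fold changes of 0.25, 0.20 and 0.16 with adjusted p between 0.223 and 0.481. MRI1, the isomerase of salvage, had 7.73 and 7.64 in VHL+ cells under hypoxia and 7.77 and 7.80 in VHL+ cells under normoxia, against 7.11 and 7.61 in VHL- cells under hypoxia and 7.36 and 7.85 in VHL- cells under normoxia. Its VHL+ arrays lay close together, whereas replicate 1 was the lower array in both groups of VHL- cells. MAT2B, the regulatory subunit beside MAT2A, had 8.57 and 8.34 in VHL+ cells under hypoxia and 8.16 and 8.28 in VHL+ cells under normoxia, against 8.18 and 8.16 in VHL- cells under hypoxia and 8.19 and 7.999 in VHL- cells under normoxia. The highest MAT2B signals were both of VHL+ cells under hypoxia, and the other groups overlapped. MTR, the synthase served by MTRR, had 8.50 and 8.26 in VHL+ cells under hypoxia and 8.03 and 8.37 in VHL+ cells under normoxia, against 8.05 and 8.18 in VHL- cells under hypoxia and 8.07 and 8.20 in VHL- cells under normoxia. The lowest signal of MTR was that of VHL+ normoxia replicate 1, below all VHL- arrays. MTAP, the entry enzyme of salvage, was the only gene with a negative value, -0.05 (95% interval -0.28 to 0.18, SE 0.11, adjusted p = 0.931). The median over the 9 genes was 0.27, against 0.06 over all clusters and 0.10 without dim clusters.

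**Figure D2:**
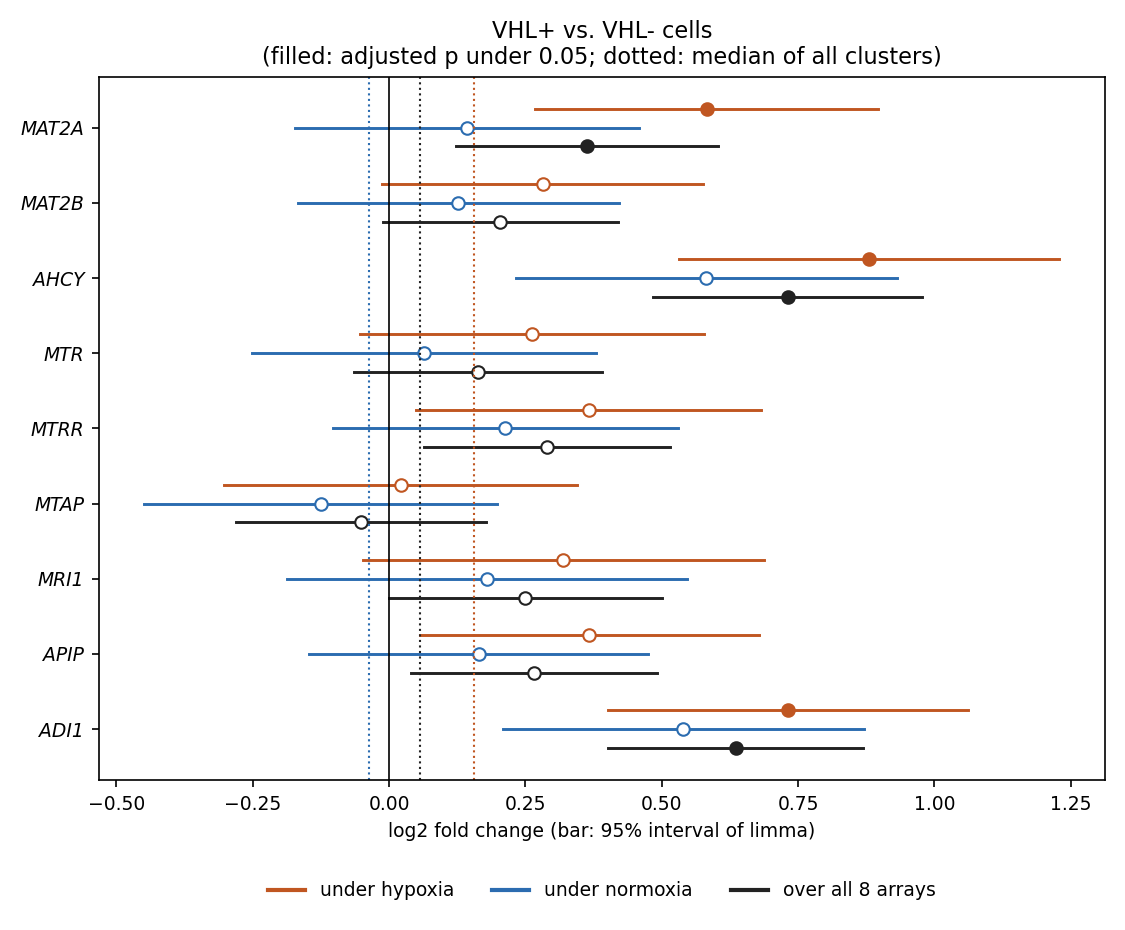
Log2 fold change of the 9 genes between VHL+ and VHL- cells (VHL+ minus VHL-, x axis) under hypoxia, under normoxia and over all 8 arrays, with 95% intervals of limma as bars, filled points for an adjusted p under 0.05 and dotted lines at the median of all clusters in the same comparison. AHCY and ADI1 lie to the right of the other 7 genes in all 3 comparisons, and under normoxia no gene is filled.

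Under hypoxia, the same 3 genes were higher in VHL+ cells: AHCY 1.84-fold, ADI1 1.66-fold and MAT2A 1.50-fold. AHCY had a log2 fold change of 0.88 (adjusted p = 0.00210, SE 0.17), ADI1 of 0.73 (adjusted p = 0.00527, SE 0.16) and MAT2A of 0.58 (adjusted p = 0.0161, SE 0.15). The share of clusters that passed was 11.6% (10.3% higher), and of these calls 88.7% were higher in VHL+ cells, but this split was 50.2% after quantile normalization and 59.7% after median centring. With dim clusters left out, 2676 clusters were called higher and 323 lower, against 3437 and 436 of all clusters, so the share is larger among brighter clusters. Relative to the median shift of all clusters, 0.16, the 3 log2 fold changes were 0.72, 0.58 and 0.43. Without dim clusters the median shift was 0.23. In this comparison 8 of 9 genes, all except MTAP, had both VHL+ arrays above both VHL- arrays, which was also true of 46.4% of all clusters.

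These calls under hypoxia depended on the scaling and on single arrays, while all 3 differences stayed positive. None of the 9 genes passed after quantile normalization, although 1831 clusters did, with log2 fold changes of 0.60 for AHCY (adjusted p = 0.0653), 0.45 for ADI1 (0.0884) and 0.38 for MAT2A (0.160). After median centring, where none passed either, they were 0.70, 0.56 and 0.41. AHCY was lost without VHL+ hypoxia replicate 1 (adjusted p = 0.120) or 2 (0.104), ADI1 without VHL+ hypoxia replicate 1 (0.189) or 2 (0.0921) or VHL- hypoxia replicate 1 (0.107), and MAT2A without VHL+ hypoxia replicate 1 (0.182) or 2 (0.129) or VHL- hypoxia replicate 2 (0.0646). In these fits the log2 fold changes were 0.94 and 0.82 for AHCY, 0.67, 0.80 and 0.49 for ADI1, and 0.62, 0.55 and 0.49 for MAT2A, so that the p values moved more than the differences. Without VHL- hypoxia replicate 2, the log2 fold changes of MRI1 and MTRR rose to 0.57 and 0.51. The median of all clusters also rose in that fit, to 0.22, against 0.16 with all arrays. The other 6 genes had log2 fold changes between 0.02 for MTAP and 0.37 for APIP, with adjusted p between 0.127 and 0.931, and the values of MTAP and MTR were negative after quantile normalization.

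Under normoxia, limma called none of the 9 genes for VHL. It gave 2 of them, AHCY and ADI1, an unadjusted p under 0.05, beside 4525 of all 33297 clusters. An unmoderated one-way test over the 4 groups gave 1 gene (ADI1) at that threshold, beside 2920 clusters, and 0 genes after adjustment. The background of adjusted limma calls was lower here, with 4.77% of all clusters, of which 43.5% were higher in VHL+ cells (55.3% after median centring). AHCY, with 10.09 and 10.10 in VHL+ cells against 9.37 and 9.65 in VHL- cells, had a log2 fold change of 0.58 (95% interval 0.23 to 0.93, SE 0.17, adjusted p = 0.0521). ADI1, with 9.32 and 9.38 in VHL+ cells against 8.72 and 8.91 in VHL- cells, had a log2 fold change of 0.54 (95% interval 0.21 to 0.87, SE 0.16, adjusted p = 0.0582). Both lay close to the threshold in this fit, but the one-way test over the 4 groups gave adjusted p = 0.595 for AHCY and 0.565 for ADI1. With single arrays left out, the log2 fold changes ranged from 0.44 to 0.72 for AHCY and from 0.45 to 0.63 for ADI1. Whether the 2 genes passed depended on the array left out. This held even for the VHL- hypoxia arrays, which enter this comparison only through the common estimate of the spread.

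The remaining 7 genes were far from the threshold under normoxia, with adjusted p between 0.731 and 1.00. MAT2A had a log2 fold change of 0.14 (adjusted p = 0.967, SE 0.15), with the VHL+ arrays on either side of the VHL- arrays. Both VHL+ arrays were above both VHL- arrays for 4 of 9 genes, AHCY, ADI1, MTRR and APIP, against 14.2% of all clusters. MTAP had a log2 fold change of -0.12 (adjusted p = 1.00, SE 0.15). The median of the 9 genes was 0.16, against -0.04 over all clusters and -0.01 without dim clusters.

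For hypoxia, limma called 0 of the 9 genes in VHL+ cells and 0 in VHL- cells. At an unadjusted p under 0.05 there was 1 gene in VHL+ cells (ADI1) and 1 in VHL- cells (MAT2A). That threshold was met by 2052 and 1765 of all 33297 clusters in the same order. The unmoderated one-way test over the 4 groups gave 0 and 0 genes. After adjustment the background was low as well, with 0.153% of clusters passing in VHL+ cells and 0.0661% in VHL- cells.

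In VHL+ cells, ADI1 had 9.79 and 9.67 under hypoxia against 9.32 and 9.38 under normoxia, a log2 fold change of 0.38 (95% interval 0.05 to 0.71, SE 0.16, adjusted p = 0.722). AHCY had 10.30 and 10.41 under hypoxia against 10.09 and 10.10 under normoxia, a log2 fold change of 0.26 (adjusted p = 0.906, SE 0.17). Both genes had their hypoxic arrays above the normoxic ones, as had MAT2B and MTRR, making 4 of 9 genes, against 28% of all clusters. MRI1 was the 1 gene with both hypoxic arrays below the normoxic ones, against 2.38% of all clusters, with a log2 fold change of -0.10 (adjusted p = 0.980, SE 0.17). The median over the 9 genes was 0.21, against 0.09 over all clusters and 0.145 without dim clusters.

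In VHL- cells, MAT2A had 11.18 and 11.00 under hypoxia against 11.43 and 11.53 under normoxia, a log2 fold change of -0.39 (95% interval -0.70 to -0.07, SE 0.15, adjusted p = 0.751). Both hypoxic arrays were below both normoxic ones. The same was true of APIP, with 7.21 and 7.30 under hypoxia against 7.48 and 7.61 under normoxia and a log2 fold change of -0.29 (adjusted p = 0.806, SE 0.15). Such separations downwards were found for 45.5% of all clusters, and 0 of the 9 genes separated upwards, against 2.47% of all clusters. ADI1 had a log2 fold change of 0.18 (adjusted p = 0.806, SE 0.16), with 8.75 and 9.24 under hypoxia on either side of 8.91, the higher array under normoxia.

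**Figure D3:**
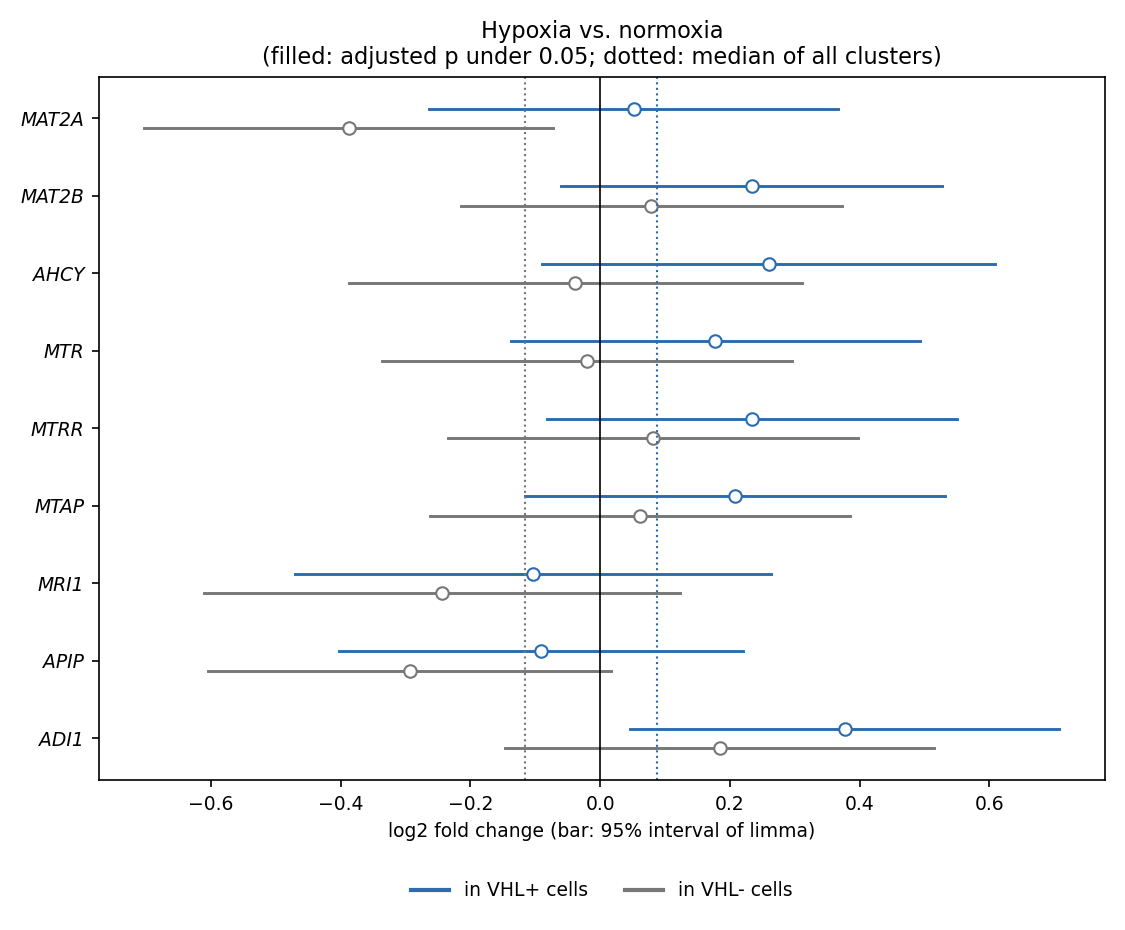
Log2 fold change of the 9 genes under hypoxia vs. normoxia (x axis) in VHL+ and in VHL- cells, with 95% intervals of limma as bars and dotted lines at the median of all clusters in the same comparison. No point is filled, since no adjusted p was under 0.05, and all 9 values of VHL+ cells lie to the right of those of VHL- cells.

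Whether hypoxia acted differently in the presence of VHL was tested as the difference between the hypoxia effects, VHL+ minus VHL-. All 9 differences were positive, between 0.14 for MRI1 and 0.44 for MAT2A, but the median over all clusters was 0.21 (0.245 without dim clusters) and that of the 9 genes 0.19. MAT2A had the largest of the 9 values, 0.44 (95% interval -0.01 to 0.88, SE 0.21, adjusted p = 0.651). None of the genes passed with limma, against 0.00601% of all clusters, and 0 had an unadjusted p under 0.05, beside 1869 of 33297 clusters. After quantile normalization, 7 of the 9 differences were negative, those of AHCY and MAT2A being the exceptions. Over all 8 arrays with VHL as the other factor, hypoxia gave 0 calls among the genes with limma, against 0.171% of all clusters. At an unadjusted p under 0.05 there was 1 gene (ADI1), beside 1649 of 33297 clusters. ADI1 had a log2 fold change of 0.28 (adjusted p = 0.750, SE 0.11).

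Genes of the connected routes were counted in the same fit of VHL over all arrays, in which 10.6% of all clusters were higher and 3.72% lower, with a median of 0.06. Among the other steps of salvage, 2 of 6 measured genes were higher in VHL+ cells and 0 lower, with a median of 0.24. KYAT3, an aminotransferase able to make methionine from its keto acid, had a log2 fold change of 0.51 (adjusted p = 0.00157, SE 0.11), and its relative KYAT1 of 0.34 (adjusted p = 0.0301, SE 0.11), a call that was lost without any of 5 single arrays, namely both of VHL+ and both of VHL- cells under hypoxia and VHL+ normoxia replicate 2 (highest adjusted p = 0.176). ENOPH1, whose step lies between those of APIP and ADI1, had a log2 fold change of 0.24 (adjusted p = 0.363, SE 0.14).

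Of 5 other genes of SAM synthesis and SAH removal, 1 was higher and 0 lower, with a median of 0.22. This was ADA, which deaminates the adenosine released by AHCY, with log2 signals of 8.80 and 8.94 in VHL+ cells under hypoxia and 8.49 and 8.60 in VHL+ cells under normoxia, against 7.69 and 7.67 in VHL- cells under hypoxia and 7.80 and 7.78 in VHL- cells under normoxia. Its groups were widely separated, with a log2 fold change of 0.98 (adjusted p = 2.98e-07, SE 0.11). AHCYL1 and AHCYL2, which resemble AHCY in sequence and regulate other proteins, had log2 fold changes of 0.22 (adjusted p = 0.321, SE 0.12) and 0.07 (adjusted p = 0.872, SE 0.10). MAT1A, the methionine adenosyltransferase of liver, was below the median of its array on 8 of 8 arrays.

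Of 5 genes on other routes of homocysteine, 1 was higher and 1 lower, with a median of 0.07. CTH, which makes cysteine in the last step of transsulfuration, had log2 signals of 7.22 and 7.36 in VHL+ cells under hypoxia and 6.65 and 6.67 in VHL+ cells under normoxia, against 9.03 and 9.09 in VHL- cells under hypoxia and 6.75 and 8.07 in VHL- cells under normoxia. It was highest in VHL- cells under hypoxia, and its replicates of VHL- cells under normoxia lay far apart. For VHL over all arrays its log2 fold change was -1.26 (adjusted p = 3.14e-05, SE 0.19), which did not pass without VHL+ hypoxia replicate 1 (adjusted p = 0.0688). For hypoxia in VHL- cells the log2 fold change of CTH was 1.65 (adjusted p = 0.0181, SE 0.26), which was lost after quantile normalization (adjusted p = 0.579) and median centring (0.764) and without VHL+ hypoxia replicate 1 or 2 (highest adjusted p = 0.671). BHMT2, which methylates homocysteine, had a log2 fold change of 0.51 (adjusted p = 0.00163, SE 0.11) with VHL, whereas its liver relative BHMT was below the median on 8 of 8 arrays. CBS, the first enzyme of transsulfuration, was named only by a cluster that also names another gene, and no value is given.

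Of 9 genes of the folate cycle, which supplies the methyl group for MTR, 1 was higher and 1 lower, with a median of -0.0023. SHMT1, the cytosolic serine hydroxymethyltransferase, had a log2 fold change of 0.94 (adjusted p = 2.81e-06, SE 0.12), and ALDH1L2, the mitochondrial formyltetrahydrofolate dehydrogenase, of -1.40 (adjusted p = 2.13e-08, SE 0.13). Of 11 genes for the handling of cobalamin, the cofactor of MTR, 3 were higher and 0 lower, with a median of 0.04, beside 10.6% higher and 3.72% lower of all clusters. CD320, the receptor for transcobalamin, had a log2 fold change of 1.06 (adjusted p = 7.37e-07, SE 0.13), and MMADHC, which directs cobalamin to its enzymes, of 0.56 (adjusted p = 0.000376, SE 0.11). TCN2, the transcobalamin itself, had a log2 fold change of 0.67 (adjusted p = 0.0275, SE 0.21), a call lost after quantile normalization (adjusted p = 0.296) and without VHL+ hypoxia replicate 1 or VHL- hypoxia replicate 1 (highest adjusted p = 0.273).

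Polyamine synthesis and turnover, the source of methylthioadenosine, had 4 of 11 genes higher and 2 lower, with a median of 0.14. SMOX, the spermine oxidase, had a log2 fold change of -1.33 (adjusted p = 7.37e-07, SE 0.16). SAT2 had 0.60 (adjusted p = 0.00162, SE 0.13) and SAT1, the spermidine/spermine acetyltransferase, -0.63 (adjusted p = 0.00218, SE 0.14), and neither passed without VHL+ hypoxia replicate 1 (adjusted p = 0.0844 for SAT2 and 0.136 for SAT1). Of 19 SAM-dependent methyltransferases 4 were higher and 2 lower, with a median of 0.11, beside the same 10.6% and 3.72% of all clusters. PRMT5, an arginine methyltransferase of proteins, had a log2 fold change of -0.67 (adjusted p = 3.93e-05, SE 0.10), NNMT, which methylates nicotinamide, of 0.69 (adjusted p = 0.000124, SE 0.12), and GAMT, the enzyme of creatine synthesis, of 0.65 (adjusted p = 0.000370, SE 0.12). In hypoxia, CTH in VHL- cells was the only gene of these 7 lists with an adjusted p under 0.05 within VHL+ or VHL- cells.

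**Figure D4:**
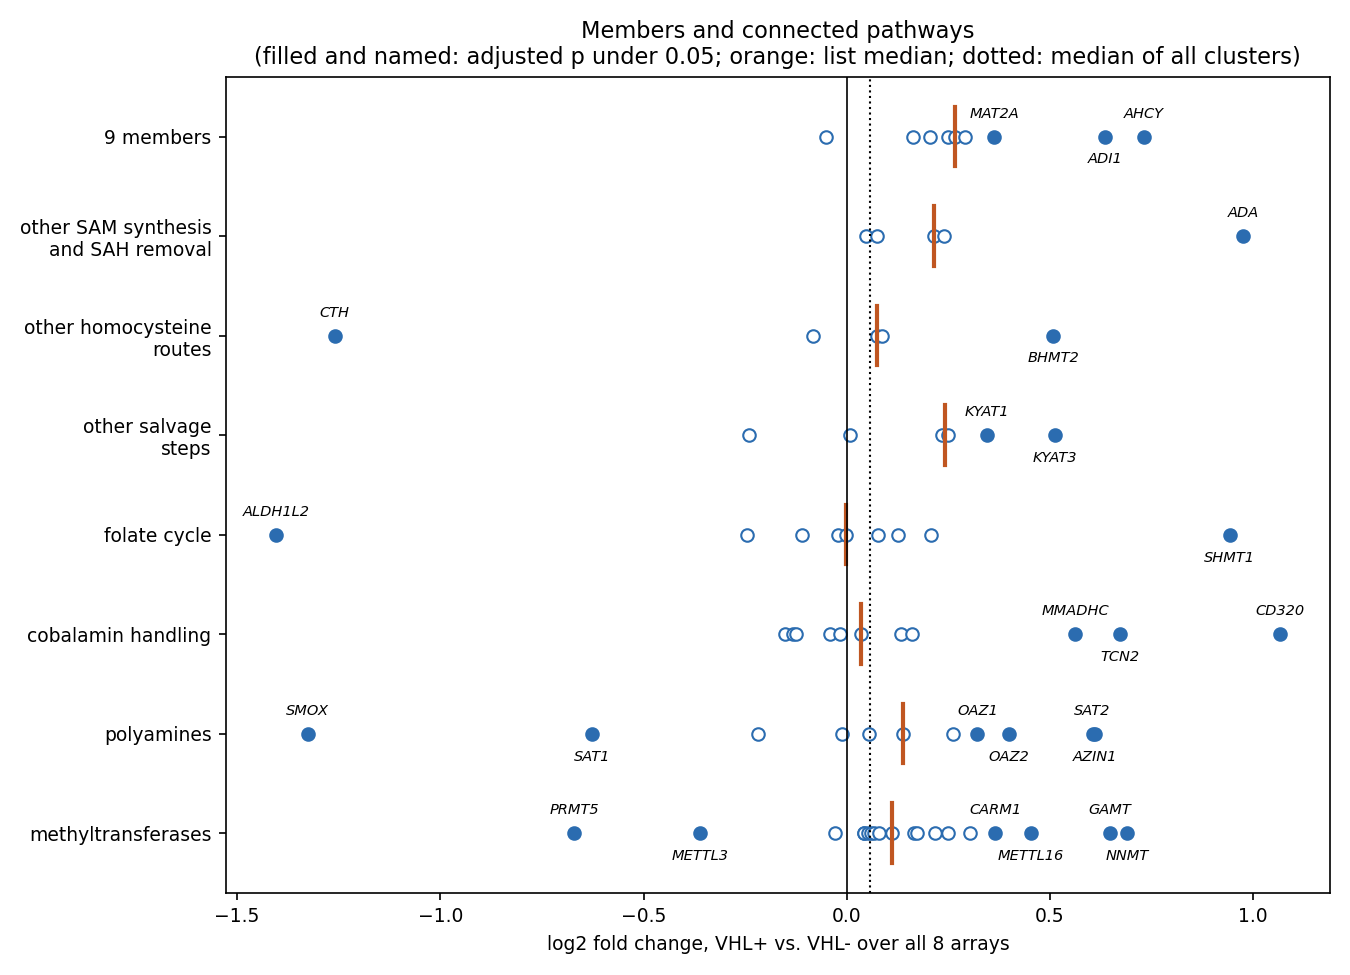
Log2 fold change between VHL+ and VHL- cells over all 8 arrays (VHL+ minus VHL-, x axis) of the 9 genes and of the genes of 7 connected lists, 1 point per gene, filled and named where the adjusted p was under 0.05, with the median of each list as an orange bar and that of all clusters as a dotted line. The 9 genes have a median of 0.27 and 1 negative value, while the folate, homocysteine, polyamine and methyltransferase lists hold called genes in both directions.

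MTAP lies on chromosome 9 beside CDKN2A and CDKN2B, a region that is often lost in tumors. MTAP itself had 7.86 and 7.55 in VHL+ cells under hypoxia and 7.34 and 7.66 in VHL+ cells under normoxia, against 7.59 and 7.78 in VHL- cells under hypoxia and 7.68 and 7.57 in VHL- cells under normoxia. The groups overlapped throughout, and all signals were above the median of their array. CDKN2A and CDKN2B, which encode cell cycle inhibitors, were below the median on 8 of 8 arrays, as was the neuronal gene ELAVL2, while DMRTA1 and KLHL9 were above it on 8 of 8 arrays. Of these 5 neighbours 1 was higher with VHL and 0 lower: KLHL9, an adaptor of a ubiquitin ligase, had a log2 fold change of 0.57 (adjusted p = 0.000594, SE 0.11).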

How the data were processed

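RNA of 786-O cells had been hybridized to Affymetrix Human Gene arrays. The authors deposited 1 log2 signal for each transcript cluster and array, obtained by RMA in Partek Genomic Suite (version not given in the sources used here), and these were used without further transformation. Gene symbols came from the platform annotation: 19460 of 33297 clusters have 1 symbol, 1754 several and 12083 none, and genes were named only from clusters with 1 symbol. All clusters were tested with limma 3.58.1 (R 4.3.3). Each comparison of groups was read from a model of the 4 group means, with 4 residual degrees of freedom and 14.0 from the prior, and the overall effects of VHL and of hypoxia from an additive model of both. P values were adjusted by Benjamini-Hochberg over all clusters, with a threshold of 0.05. The fit was tested on simulated data for VHL under normoxia. It recovered 99% of changes with a log2 size of 1 but 27% of those of 0.5, and made 19 false calls among unchanged clusters. A gene that was not called can therefore still have changed by such an amount, and some calls can be false. The simulation changed 100 of 33297 clusters for each size and held no shift between arrays, so its rates need not hold for these data. Replicates correlated at 0.991 to 0.994 across clusters.

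The members and lists were chosen with earlier results of these data known. The text names all 9 members, ENOPH1, CBS, CTH, BHMT, AHCYL1, AHCYL2, MAT1A and the neighbours of MTAP, and up to 3 called genes per list with the smallest adjusted p for VHL over all arrays; the plot of the lists names every called gene. The lists covered other salvage steps, SAM synthesis and SAH removal, other homocysteine routes, the folate cycle, cobalamin handling, polyamines, methyltransferases, MTAP neighbours and cell type markers, and 8 listed genes with no cluster of 1 symbol were not analysed here. Alternatives were quantile normalization, median centring, dim clusters left out, the compared groups alone, a one-way test without moderated variances on the compared groups (unadjusted p under 0.005, the threshold in the methods, or adjusted), the replicate number as a block, an intensity trend and robust variances in limma, the mean of a gene's clusters and each array left out. Leaving out the arrays with the lowest and highest median together, and the same one-way test over all 4 groups with their common spread, the layout closer to the methods' one-way analysis, were chosen after seeing the data. Promoter windows are those of RefSeq on GRCh38.p14. The 2 replicates of each group limit the precision; the labels do not say whether they were separate cultures beyond calling them biological replicates. The qPCR, protein and metabolic assays were not analysed here.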

Additional observations from a re-analysis of the deposited data

How the results depend on the processing

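AHCY and ADI1 kept their call for VHL over all arrays under all alternatives run, and no alternative called any of the 9 genes for hypoxia or for the difference between hypoxia effects. For VHL over all arrays, 2 to 5 genes passed when single arrays were left out, beside 2422 to 6125 of all 33297 clusters. For VHL under hypoxia, where 3 genes passed, 0 passed after quantile normalization, after median centring, by either unmoderated one-way test or without the arrays with the lowest and highest median, and 0 to 4 with single arrays left out. The one-way test over the 4 groups gave unadjusted p = 0.0164 for AHCY, 0.0184 for ADI1 and 0.0225 for MAT2A (0.201, 0.207 and 0.218 after adjustment), and called 20 of all clusters after adjustment. On the compared groups alone, with 2 arrays each and few degrees of freedom, it gave unadjusted p = 0.0877, 0.101 and 0.0281 (0.511, 0.522 and 0.439 after adjustment) and called 1 cluster. Neither was run for VHL over all arrays. When arrays were left out fewer remained, and a lone array of a group is assumed to vary like the others. In each comparison of VHL the number of all clusters called also changed widely between these fits. A change in the number of genes passing is therefore not particular to these genes. For VHL under normoxia, 1 gene passed with trend and robust estimation (AHCY, adjusted p = 0.0252), beside 2174 of all clusters. With single arrays left out, whether AHCY and ADI1 passed depended on the array. The labels give the groups the same replicate numbers. But the replicate differences of pairs of groups correlated between 0.0503 and 0.605, with 2 of 6 under 0.1, so the numbers were not taken as pairs. With the replicate block, 2 genes passed under normoxia (AHCY, adjusted p = 0.00539, and ADI1, 0.0125), beside 2518 of all clusters, and no other call changed. Dim clusters left out and the mean of a gene's clusters changed no call of the 9 genes.

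Signs turned only for values that had not passed. After quantile normalization these were MTAP (-0.21) and MTR (-0.0041) for VHL under hypoxia, AHCY (0.060) and MTR (0.079) for hypoxia in VHL- cells, MAT2A (-0.085) for hypoxia in VHL+ cells, and the differences between hypoxia effects of ADI1 (-0.065), APIP (-0.041), MAT2B (-0.10), MRI1 (-0.11), MTAP (-0.10), MTR (-0.071) and MTRR (-0.11). After median centring they were MTAP (-0.15), AHCY (0.075), MTR (0.093) and MAT2A (-0.061) in the same comparisons, and the differences of ADI1 (-0.035), APIP (-0.024), MAT2B (-0.072), MRI1 (-0.086), MTAP (-0.080), MTR (-0.029) and MTRR (-0.074). Without the arrays with the lowest and highest median they were MTAP (-0.23) for VHL under hypoxia, AHCY (0.23), MRI1 (0.0050) and MTR (0.045) for hypoxia in VHL- cells, and the differences of ADI1 (-0.11), APIP (-0.022), MRI1 (-0.15), MTAP (-0.10) and MTRR (-0.076). With single arrays left out, the log2 fold changes that turned had these ranges: for VHL under normoxia MAT2A -0.056 to 0.34, MRI1 -0.065 to 0.42, MTAP -0.29 to 0.039, MTR -0.11 to 0.24, for VHL under hypoxia MTAP -0.13 to 0.18 and for VHL over all arrays MTAP -0.13 to 0.029. For hypoxia in VHL- cells they were ADI1 -0.059 to 0.43, AHCY -0.31 to 0.23, MAT2B -0.016 to 0.17, MRI1 -0.49 to 0.0050, MTAP -0.034 to 0.16, MTR -0.086 to 0.045, MTRR -0.066 to 0.23, for hypoxia in VHL+ cells APIP -0.27 to 0.088, MAT2A -0.15 to 0.25, for hypoxia over all arrays MTR -0.010 to 0.13, and for the differences between hypoxia effects ADI1 -0.051 to 0.44, MRI1 -0.11 to 0.39, MTAP -0.017 to 0.31. The cause of these turns was not tested. Precision is limited by having 2 arrays per group.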
